A study of Mus musculus with 6 samples.

Results

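The autophagy machinery described here is a list of 39 mouse genes that build, load and regulate the autophagosome, measured in the pancreas of newborn mice. The genes were chosen by name, as all array probes whose gene name is a listed member or an older or newer symbol of the same gene, with no threshold on a measured value. All 39 were on the array, through 55 probes, among 24165 named genes in all. The levels of 37 could be tested, and Atg10 and Atg4a were too dim.

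Total RNA of the whole pancreas was hybridised to single-colour Agilent arrays in 3 genotypes, with 2 arrays each. These were Spink3-/- mice, Spink3-/-XKI/+ mice and Spink3+/+ mice, all of strain C57BL/6N and all taken at postnatal day 0.5. Spink3 encodes a trypsin inhibitor of acinar cells, the enzyme-secreting cells of the exocrine pancreas. Both deficient genotypes lack Spink3 on both alleles, and the labels do not say what XKI stands for. Per the series' design text, all acinar cells of Spink3-/- pancreas undergo a death that is not apoptosis and that comes with autophagy, whereas in Spink3-/-XKI/+ pancreas a share of the acinar cells is normal. The wild type served as control for both, so the comparisons with Spink3+/+ share their 2 control arrays. Whether replicates of a genotype are different animals is not given in the labels, and p-values then measure only the spread between these samples.

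Autophagy encloses cytoplasm in a double membrane, the autophagosome, and delivers it to the lysosome for breakdown. A kinase complex around ULK1 starts the process, a phosphatidylinositol 3-kinase complex marks the membrane, ATG9 and ATG2 supply it with lipid, and a pair of ubiquitin-like conjugation reactions attaches LC3 proteins to it, which bind cargo receptors such as p62. In pancreatic acinar cells autophagy is known for digesting zymogen granules and for its disturbance in pancreatitis. Much of the pathway is regulated by phosphorylation, lipidation and turnover of its proteins, which an RNA array does not measure.

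The arrays carried 55681 different probes on 59305 spots that are not controls, of which 42.4% to 50.8% were well above background. Array levels correlated at 0.970 to 0.984 across the 14171 tested genes, within and between genotypes. Spink3 had log2 levels of 3.25 and 2.95 in Spink3-/- and 2.64 and 2.34 in Spink3-/-XKI/+, against 9.84 and 10.26 in Spink3+/+ pancreas, where a log2 level is the log2 of a signal over its array's 75th percentile. All 12 acinar markers were above background on every array, with summed levels of 11159 and 15099 in Spink3-/-, 13134 and 13596 in Spink3-/-XKI/+ and 12240 and 14168 in Spink3+/+ pancreas, in multiples of the 75th percentile. Taken singly, 9 of the 12 were lower and 3 higher in Spink3-/- than in Spink3+/+ pancreas, and limma called none. Their median log2 difference was -0.13, and Pnlip was lowest at -1.41. In Spink3-/-XKI/+ against Spink3+/+, 8 were higher and 4 lower, with a median of 0.07. Sums of markers of other cells differed between genotypes, though limma called none of those markers. All 9 liver markers were higher on both Spink3-/- arrays than on any other, with summed levels of 97.8 and 89.3, against 43.6 and 60.6 in Spink3-/-XKI/+ and 38.95 and 55.0 in Spink3+/+ pancreas. The 6 macrophage markers summed to 43.2 and 46.0 in Spink3-/- and to 57.3 and 46.7 in Spink3-/-XKI/+, against 35.6 and 40.3 in Spink3+/+ pancreas. The 3 erythroid markers that could be tested, of 5 listed, summed to 12.6 and 11.9 in Spink3-/- and to 11.9 and 6.41 in Spink3-/-XKI/+, against 26.4 and 19.0 in Spink3+/+ pancreas. The 5 neutrophil markers summed to 70.2 and 88.1 in Spink3-/- and to 91.3 and 88.9 in Spink3-/-XKI/+, against 103 and 154 in Spink3+/+ pancreas. The 3 tested endothelial markers, of 4 listed, summed to 116 and 179 in Spink3-/- and to 140 and 168 in Spink3-/-XKI/+, against 104 and 114 in Spink3+/+ pancreas. The 3 tested striated muscle markers, of 5 listed, summed to 1.69 and 0.886 in Spink3-/- and to 1.21 and 3.00 in Spink3-/-XKI/+, against 0.620 and 0.932 in Spink3+/+ pancreas. Of these muscle markers, 1 was above background on every array. Sums of islet, duct, and fibroblast and stellate markers were 2409 to 2776, 26.5 to 28.3 and 377 to 398 in Spink3-/-, 2865 to 2910, 23.9 to 29.8 and 397 to 421 in Spink3-/-XKI/+, and 2505 to 2515, 21.3 to 24.8 and 358 to 395 in Spink3+/+ pancreas. What part these cells have in the autophagy genes' values was not tested. In whole tissue, fewer cells of a type and less RNA per cell cannot be told apart.

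In Spink3-/- against Spink3+/+ pancreas, no autophagy gene passed the test. The largest difference was in Atg9a, the lipid scramblase that seeds the autophagosome, at -0.56 on the log2 scale (0.679-fold). Atg14 followed at -0.50, and Vmp1, Atg3 and Tfeb were the furthest in the other direction, at 0.42, 0.42 and 0.40. Of 37 tested members, 0 were called by limma at an adjusted p under 0.05 and 0 had an unadjusted p under 0.05, against 0.0353% (0.0212% higher and 0.0141% lower) and 5.06% of all tested genes. The groups did not overlap for 4 members higher in Spink3-/-, against 16.1% of all tested genes, and for 6 members lower, against 16.6%. The median difference over the members was -0.05, beside -0.01 over all tested genes. Of the members 13 were above 0 and 24 below, beside 49.1% of all tested genes above 0.

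In Spink3-/-XKI/+ against Spink3+/+ pancreas, no member passed either. Atg16l2, a paralogue of the conjugation scaffold Atg16l1, stood at 0.89 (1.85-fold), Sqstm1 at 0.55, Vmp1 at 0.54 and Atg9a at -0.64. Limma called 0 of the 37 members, against 0.00706% of all tested genes, and an unadjusted p under 0.05 was found for 4, Atg16l2, Atg9a, Tfeb and Vmp1, against 7.56%. Groups did not overlap for 11 members higher in Spink3-/-XKI/+, against 26% of all tested genes, and for 5 lower, against 16.1%. The higher ones include Optn, which passed the probe filter only through the Spink3-/-XKI/+ arrays. The median was 0.06 over the members and 0.04 over all tested genes. Above 0 were 22 members, with 15 below, beside 56.3% of all tested genes above 0.

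Set against each other, Spink3-/- and Spink3-/-XKI/+ pancreas differed most in Atg16l2, at -0.94 (0.522-fold), and in the LC3-processing protease Atg4c, at -0.79. Atg4c was above background on 1 of 2 Spink3-/- arrays. No member was called by limma, against 0.00706% of all tested genes, and Atg16l2 alone had an unadjusted p under 0.05, against 7.2%. Without overlap, 1 member was higher in Spink3-/-, against 13.1% of all tested genes, and 7 were lower, against 21.4%. The median was -0.09 over the members and -0.04 over all tested genes. Above 0 were 13 members, with 24 below, beside 42.7% of all tested genes above 0. Over the 3 comparisons the members' typical difference was no larger than that of all genes, with a median absolute log2 difference of 0.14, 0.13 and 0.15 for members beside 0.16, 0.19 and 0.18 for all tested genes, in the order in which the comparisons are given above.

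**Figure D1:**
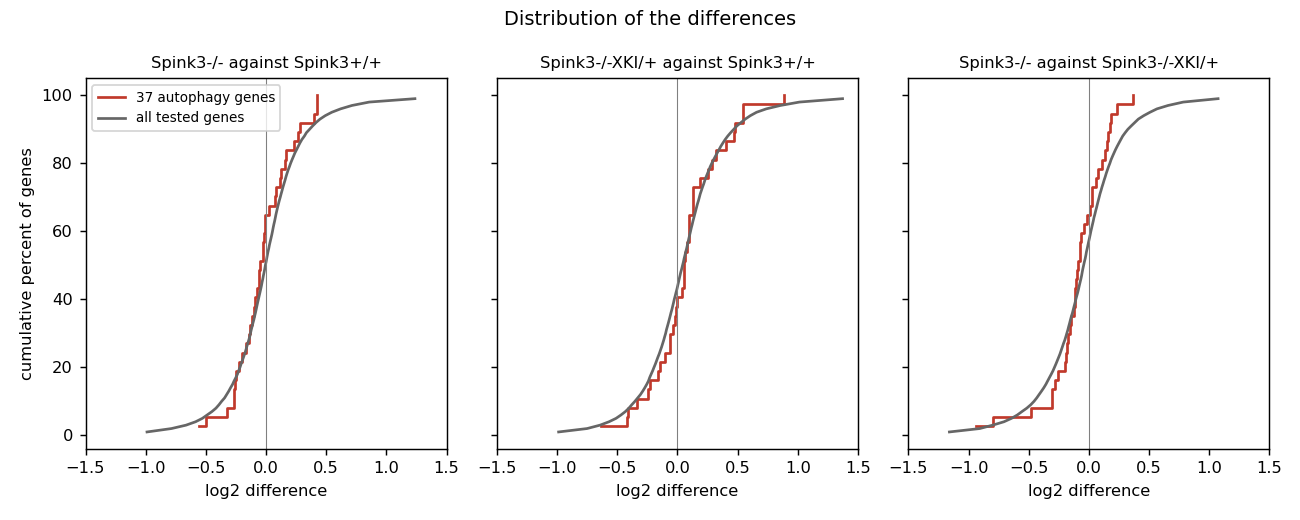
Cumulative percent of genes (vertical axis) at or below each log2 difference (horizontal axis) for the 37 tested autophagy genes (red) and all 14171 tested genes (grey), with 1 panel per comparison. The red steps follow the grey curve near the middle, and the members' medians are -0.05, 0.06 and -0.09 from left to right.

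A missed threshold does not show equal levels, and the intervals say what the arrays could exclude. The 95% interval of the difference reached 0.54 to either side (median over members). It lay wholly within a 2-fold change for 31 of 37 members in Spink3-/- against Spink3+/+, beside 76.6% of all tested genes. It did so for 29 in Spink3-/-XKI/+ against Spink3+/+ (all genes 73.6%) and for 30 in Spink3-/- against Spink3-/-XKI/+ (all genes 74.9%). Differences over 0.5 were found for 1, 4 and 2 members in these comparisons, beside 11.6%, 14.1% and 13.5% of all tested genes.

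**Figure D2:**
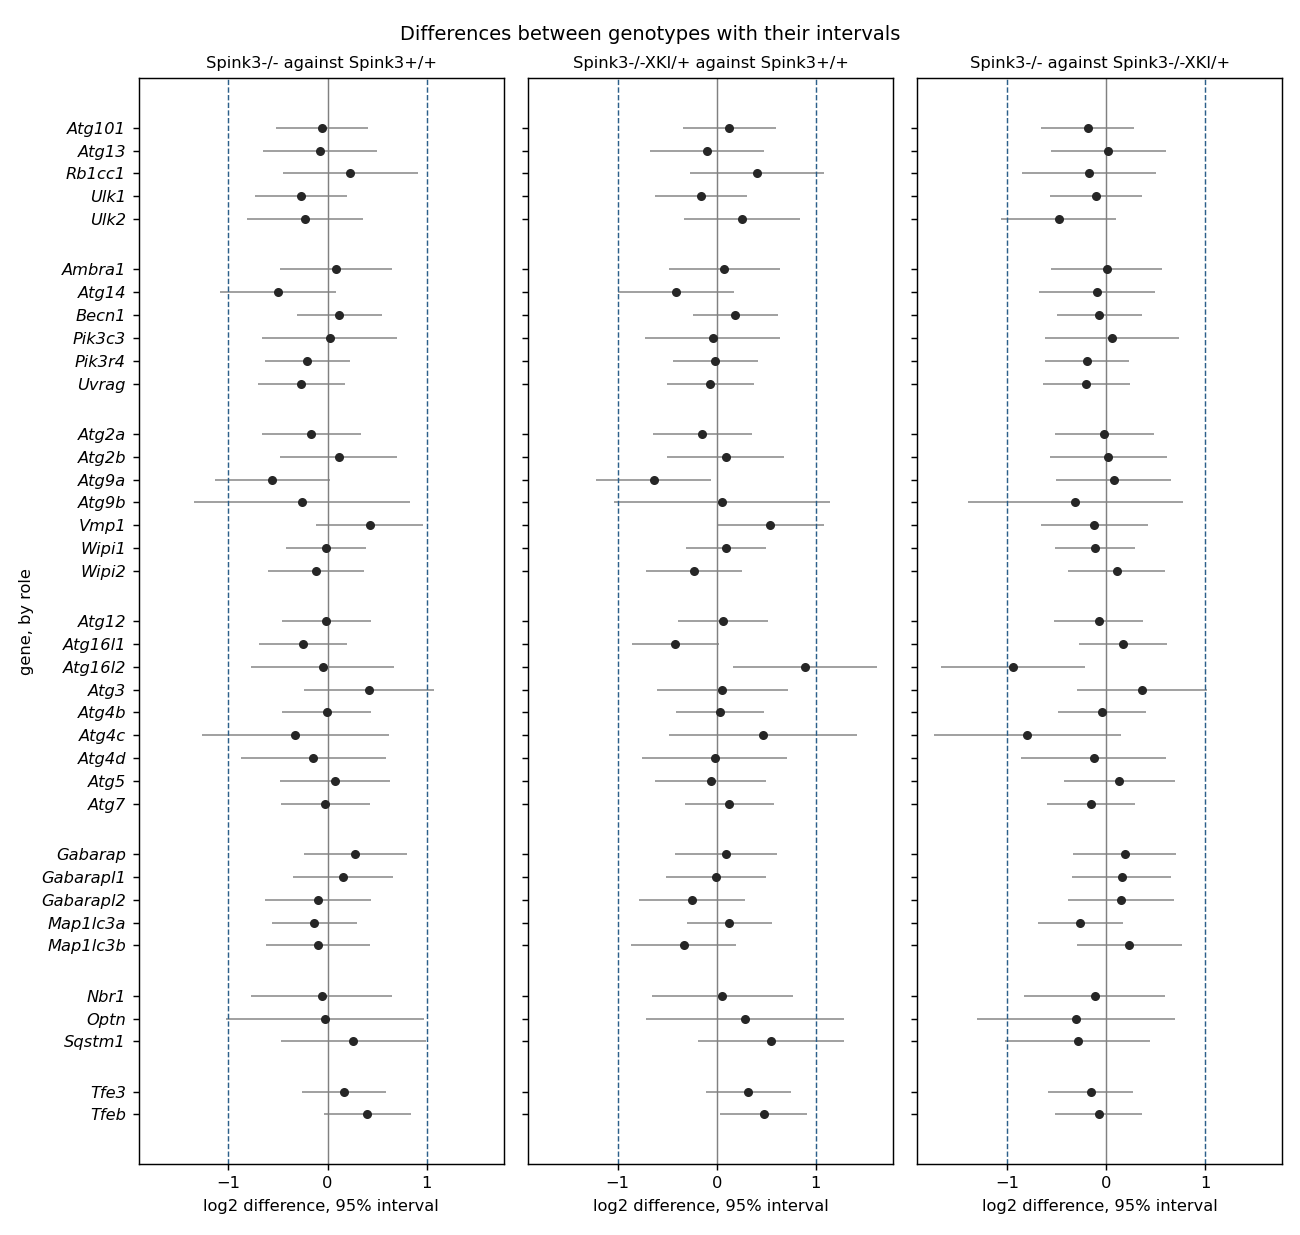
Log2 difference (point) with its 95% interval from limma (line) for the 37 tested members, grouped by role from initiation at the top to transcription factors at the bottom, with 1 panel per comparison. Dashed lines mark a 2-fold change in either direction. In the left panel all intervals reach 0, in the middle panel those of Atg16l2, Atg9a, Tfeb and Vmp1 do not, and in the right panel that of Atg16l2 does not.

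The 5 initiation genes encode the kinases Ulk1 and Ulk2 and their partners Atg13, Atg101 and Rb1cc1, the scaffold also known as FIP200. Ulk1 had log2 levels of 3.20 and 3.45 in Spink3-/- and 3.53 and 3.33 in Spink3-/-XKI/+, against 3.70 and 3.47 in Spink3+/+ pancreas. Both Spink3-/- arrays lay below both wild-type arrays, the nearer one only just, and the Spink3-/-XKI/+ arrays overlapped them. The difference from Spink3+/+ was -0.26 ± 0.19 (SE, n = 2 each, limma adjusted p = 0.987) in Spink3-/- and -0.16 ± 0.19 (limma adjusted p = 0.875) in Spink3-/-XKI/+ pancreas. Ulk2 had -0.29 and -0.81 in Spink3-/- and 0.11 and -0.26 in Spink3-/-XKI/+, against -0.27 and -0.38 in Spink3+/+ pancreas. Its Spink3-/-XKI/+ arrays were above its Spink3-/- arrays, with a difference of -0.48 ± 0.24 for Spink3-/- against Spink3-/-XKI/+ (limma adjusted p = 0.735), though the nearest pair of arrays was close.

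Rb1cc1 had 2 usable probes that did not move together. By the brighter one, Rb1cc1 had levels of -0.25 and 0.25 in Spink3-/- and 0.21 and 0.14 in Spink3-/-XKI/+, against 0.08 and -0.55 in Spink3+/+ pancreas. That gave 0.41 ± 0.28 for Spink3-/-XKI/+ against Spink3+/+ (limma adjusted p = 0.780), whereas the other probe gave -0.10. The 2 wild-type arrays of the brighter probe were further apart than any array of the deficient genotypes was from its partner. Differences of Atg13 and Atg101 ran from -0.18 to 0.13 over the 3 comparisons, with overlapping arrays in each. Over the 5 initiation genes the median was -0.08 in Spink3-/- and 0.13 in Spink3-/-XKI/+ against Spink3+/+, and -0.17 in Spink3-/- against Spink3-/-XKI/+.

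**Figure D3:**
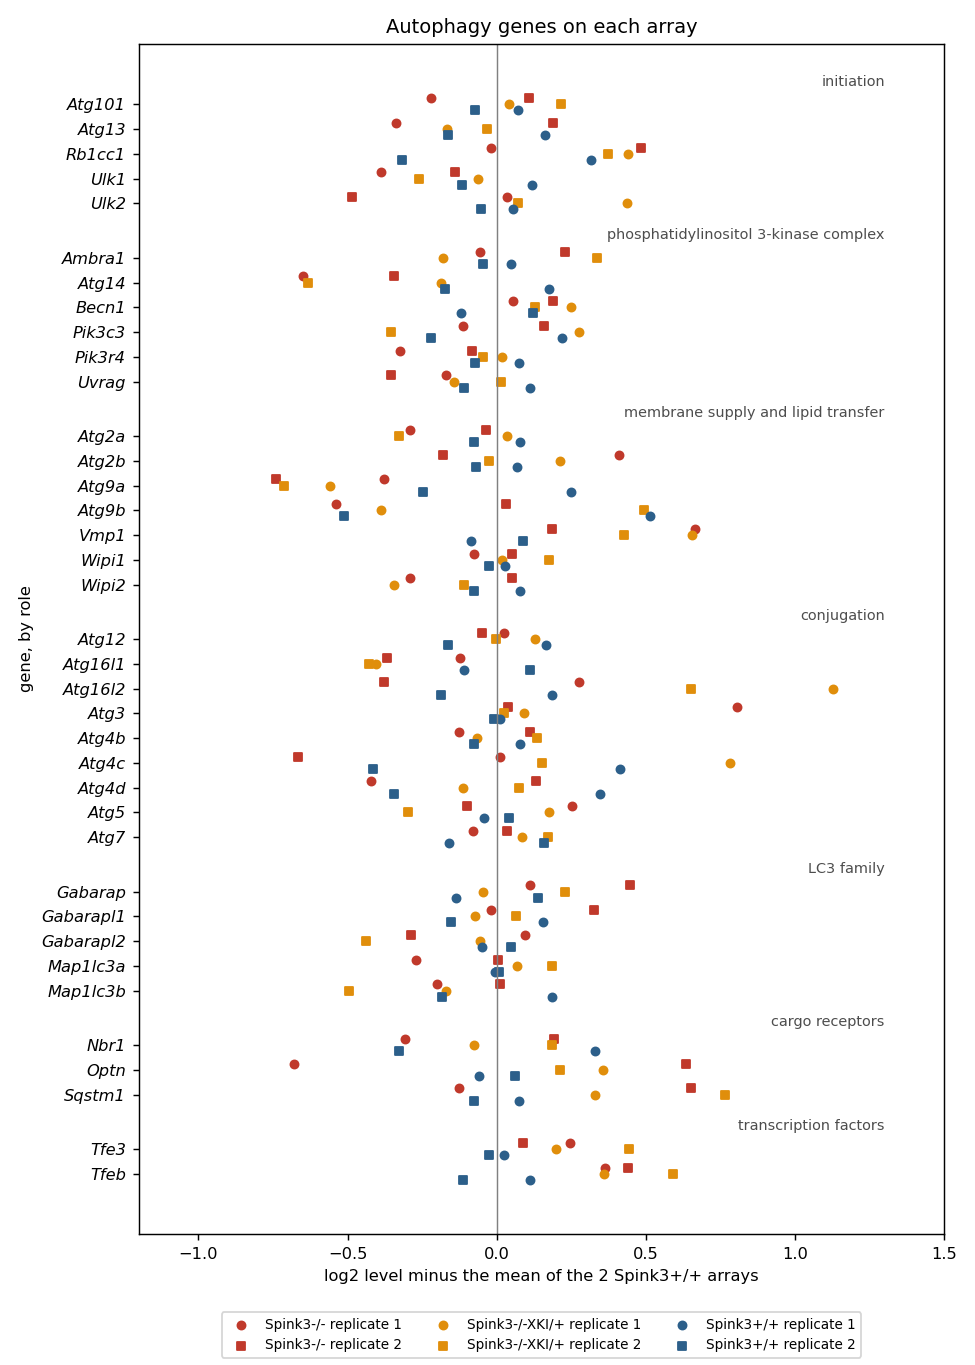
Log2 level of each of the 37 tested members on each of the 6 arrays (circles, replicate 1; squares, replicate 2; red, Spink3-/-; orange, Spink3-/-XKI/+; blue, Spink3+/+), drawn as the distance from the mean of the 2 Spink3+/+ arrays and grouped by role. Colours intermix for most genes. The blue symbols lie left of all red and orange ones for Atg3, Tfe3, Tfeb and Vmp1, and right of them for Atg14, Atg16l1 and Atg9a, some by small margins.

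Of the 6 genes of the phosphatidylinositol 3-kinase complex, Pik3c3 encodes the catalytic subunit VPS34, Pik3r4 its regulatory subunit, Becn1 the scaffold beclin 1, Atg14 and Uvrag the alternative partners that direct it to autophagosomes and endosomes, and Ambra1 a beclin 1 regulator. Atg14 had -0.69 and -0.39 in Spink3-/- and -0.23 and -0.67 in Spink3-/-XKI/+, against 0.13 and -0.22 in Spink3+/+ pancreas. All 4 deficient arrays lay below both wild-type arrays, 1 Spink3-/-XKI/+ array by a small margin. The differences from Spink3+/+ were -0.50 ± 0.24 (0.708-fold, limma adjusted p = 0.987) in Spink3-/- and -0.41 ± 0.24 (limma adjusted p = 0.751) in Spink3-/-XKI/+ pancreas. Without Spink3+/+ replicate 1 these were -0.32 and -0.23, and without Spink3-/-XKI/+ replicate 2 that of Spink3-/-XKI/+ was -0.19. Uvrag had 1.79 and 1.61 in Spink3-/- and 1.82 and 1.98 in Spink3-/-XKI/+, against 2.07 and 1.85 in Spink3+/+ pancreas. Its Spink3-/- arrays were the lowest of the 6, at -0.26 ± 0.18 against Spink3+/+ (limma adjusted p = 0.987) and -0.20 ± 0.18 against Spink3-/-XKI/+ (limma adjusted p = 0.871).

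Becn1 had -0.03 and 0.10 in Spink3-/- and 0.16 and 0.04 in Spink3-/-XKI/+, against -0.21 and 0.03 in Spink3+/+ pancreas. The arrays spanned a narrow range, and the difference of Spink3-/- from Spink3+/+ was 0.12 with a 95% interval of -0.31 to 0.55. For Spink3-/-XKI/+ against Spink3+/+ it was 0.19, from -0.24 to 0.62. Ambra1, Pik3c3 and Pik3r4 differed by -0.20 to 0.09 in all comparisons, and Pik3r4, at -0.20 and -0.19, had both Spink3-/- arrays below the arrays of either other genotype. The medians over the 6 genes were -0.09 and -0.03 in Spink3-/- and Spink3-/-XKI/+ against Spink3+/+, and -0.08 between the deficient genotypes.

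Membrane supply and lipid transfer covers Atg9a and Atg9b, the scramblases carried on vesicles, Atg2a and Atg2b, bridge-like lipid transfer proteins, the phosphoinositide-binding proteins Wipi1 and Wipi2, and Vmp1, an endoplasmic reticulum scramblase known for its induction in acinar cells in pancreatitis. Atg9a had 0.34 and -0.03 in Spink3-/- and 0.15 and 0.00 in Spink3-/-XKI/+, against 0.96 and 0.47 in Spink3+/+ pancreas. Every deficient array was below both wild-type arrays. Its probe lies at chr1:75184260-75184319 on the minus strand of mm9. The difference from Spink3+/+ was -0.56 ± 0.24 in Spink3-/- (95% interval -1.14 to 0.02, limma adjusted p = 0.987) and -0.64 ± 0.24 in Spink3-/-XKI/+ pancreas (-1.22 to -0.06, limma adjusted p = 0.628). Without Spink3+/+ replicate 1 these were -0.31 and -0.39. The deficient genotypes themselves were 0.08 apart.

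Vmp1 ran the other way. It had 3.58 and 3.101 in Spink3-/- and 3.57 and 3.34 in Spink3-/-XKI/+, against 2.83 and 3.00 in Spink3+/+ pancreas, by a probe at chr11:86398254-86398313 on the minus strand of mm9. All 4 deficient arrays were above both wild-type arrays, and the 2 Spink3-/- arrays were well apart from each other. The difference from Spink3+/+ was 0.42 ± 0.22 in Spink3-/- (1.34-fold, 95% interval -0.11 to 0.96, limma adjusted p = 0.987) and 0.54 ± 0.22 in Spink3-/-XKI/+ pancreas (1.45-fold, 0.00 to 1.08, limma adjusted p = 0.657). Without Spink3-/- replicate 1 the Vmp1 difference of Spink3-/- from Spink3+/+ was 0.19, and without Spink3-/- replicate 2 it was 0.66. The other 5 genes of this group differed by -0.31 to 0.11, and Atg9b, whose wild-type arrays were 1.02 apart, had the widest intervals of all members. Group medians were -0.12 and 0.05 against Spink3+/+ in Spink3-/- and Spink3-/-XKI/+ pancreas, and -0.02 between them.

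**Figure D4:**
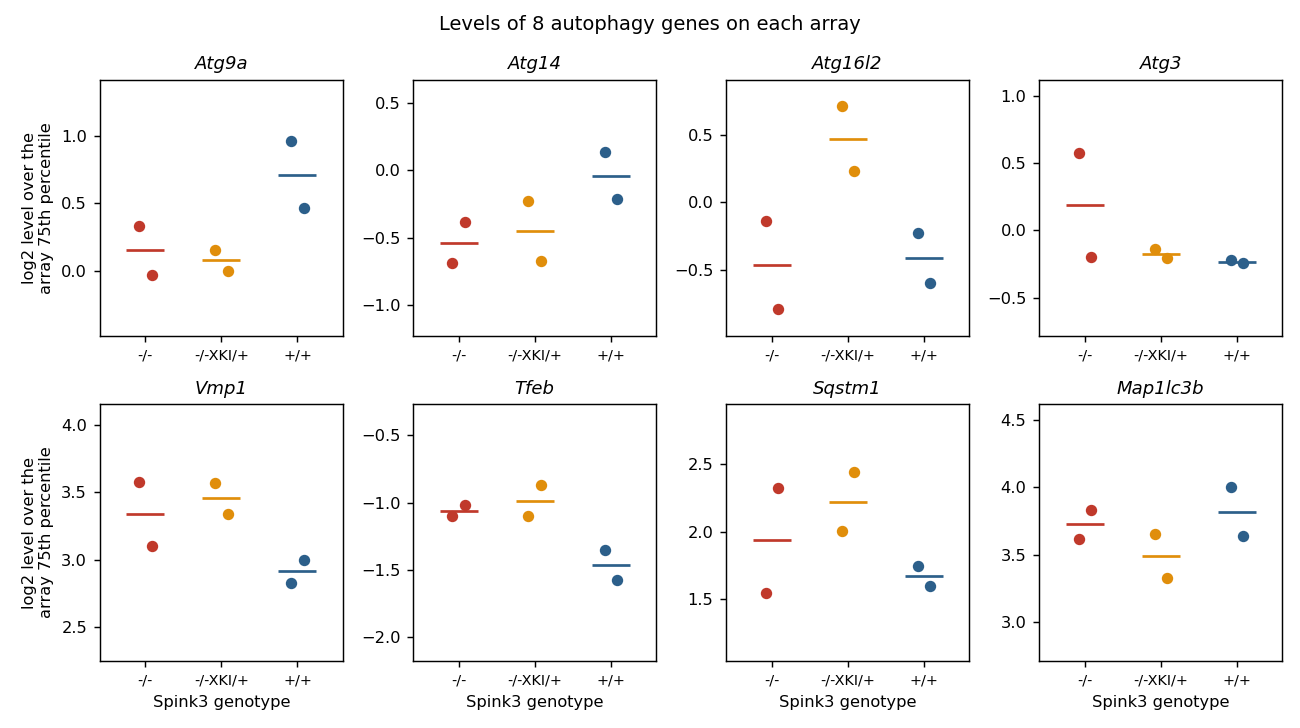
Log2 level relative to each array's 75th percentile (vertical axis) of 8 members on each array (points) with the genotype mean (bar), in the order Spink3-/-, Spink3-/-XKI/+ and Spink3+/+. Atg9a and Atg14 lie lower on all 4 deficient arrays, Vmp1 and Tfeb higher, Atg16l2 stands high on the Spink3-/-XKI/+ arrays, and Atg3 on 1 Spink3-/- array. Levels are comparable within a panel, since each gene has its own probe.

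Conjugation genes carry ATG12 onto ATG5 and LC3 onto lipid: Atg7 encodes the shared activating enzyme, Atg3 and Atg10 the transfer enzymes, Atg16l1 the scaffold that places the complex on the membrane, and Atg4a to Atg4d the proteases that trim LC3. Of these 11 genes 9 could be tested. Atg10 was above background on 3 of 6 arrays, 1 per genotype, by its better probe, and Atg4a on 0 of 6. Atg5 had 1.02 and 0.67 in Spink3-/- and 0.94 and 0.47 in Spink3-/-XKI/+, against 0.73 and 0.81 in Spink3+/+ pancreas, and Atg7 had 1.42 and 1.53 in Spink3-/- and 1.58 and 1.67 in Spink3-/-XKI/+, against 1.34 and 1.65 in Spink3+/+ pancreas. Against Spink3+/+ both genes overlapped in either genotype. The differences from Spink3+/+ were 0.08 for Atg5 (95% interval -0.48 to 0.63) and -0.02 for Atg7 (-0.47 to 0.42) in Spink3-/- pancreas, and -0.06 for Atg5 and 0.13 for Atg7 in Spink3-/-XKI/+ pancreas.

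Atg16l2 had the largest differences of any member in both comparisons that involve Spink3-/-XKI/+. It had -0.14 and -0.79 in Spink3-/- and 0.71 and 0.24 in Spink3-/-XKI/+, against -0.23 and -0.60 in Spink3+/+ pancreas, by a probe at chr7:108438181-108438240 on the minus strand of mm9. Both Spink3-/-XKI/+ arrays lay above all 4 others, and Spink3-/- and Spink3+/+ overlapped. The difference was 0.89 ± 0.30 for Spink3-/-XKI/+ against Spink3+/+ (95% interval 0.16 to 1.61, limma adjusted p = 0.590) and -0.94 ± 0.30 for Spink3-/- against Spink3-/-XKI/+ (-1.66 to -0.21, limma adjusted p = 0.577). A dimmer Atg16l2 probe was above background on both Spink3-/-XKI/+ arrays, on 1 Spink3-/- array and on 0 of the Spink3+/+ arrays. It was kept only because of the Spink3-/-XKI/+ arrays, so its difference is no support for the brighter probe and is not given. The macrophage sum was highest on Spink3-/-XKI/+ replicate 1 (57.3), as Atg16l2 was. The striated muscle sum was highest on Spink3-/-XKI/+ replicate 2 (3.00), where Atg16l2 had 0.24. All 3 tested muscle markers were higher on both Spink3-/-XKI/+ arrays than on both Spink3+/+ arrays. Only 1 of the 3 was above background on every array, so no fold is given. The part of macrophages and muscle in the Atg16l2 value was not tested.

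Atg16l1 had -0.54 and -0.79 in Spink3-/- and -0.82 and -0.85 in Spink3-/-XKI/+, against -0.53 and -0.31 in Spink3+/+ pancreas. The 3 genotypes did not overlap, although the nearest Spink3-/- and Spink3+/+ arrays all but met. Its differences were -0.25 ± 0.18 in Spink3-/- (limma adjusted p = 0.987) and -0.42 ± 0.18 in Spink3-/-XKI/+ against Spink3+/+ pancreas (limma adjusted p = 0.685). Atg3 had 0.57 and -0.19 in Spink3-/- and -0.14 and -0.21 in Spink3-/-XKI/+, against -0.22 and -0.24 in Spink3+/+ pancreas. Only Spink3-/- replicate 1 stood away from the other 5 arrays, and the Atg3 difference of 0.42 ± 0.27 (limma adjusted p = 0.987) was 0.04 without it. Atg4c had -1.44 and -2.12 in Spink3-/- and -0.67 and -1.30 in Spink3-/-XKI/+, against -1.04 and -1.87 in Spink3+/+ pancreas. Its replicates were far apart in each genotype, and -0.79 ± 0.39 in Spink3-/- against Spink3-/-XKI/+ had a limma adjusted p = 0.728. Only 1 of its 2 Spink3-/- arrays was above background, so the size of that difference is uncertain. Differences of Atg12, Atg4b and Atg4d ran from -0.14 to 0.06.

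Transcription factors of the TFEB family bind the letters CACGTG, and the 250 bases before the annotated start of each gene were searched for them. They read the same on both strands. A start region was listed by RefSeq (GRCm38.p6) for 33 of the 39 members, and 3 of these, or 9.09%, held CACGTG, beside 6.86% of 27025 mouse gene symbols with such a region. The longer TCACGTGA, which contains it, was found in 1 member, Atg3, or 3.03%, beside 0.907% of all. The 3 regions, all of conjugation genes, are shown because they are the places where a TFEB motif can be read in the members, with the motif in capitals. They are Atg3 at chr16:45158579-45158828, Atg5 at chr10:44268089-44268338 and Atg7 at chr6:114670846-114671095, all on the plus strand.
Atg3: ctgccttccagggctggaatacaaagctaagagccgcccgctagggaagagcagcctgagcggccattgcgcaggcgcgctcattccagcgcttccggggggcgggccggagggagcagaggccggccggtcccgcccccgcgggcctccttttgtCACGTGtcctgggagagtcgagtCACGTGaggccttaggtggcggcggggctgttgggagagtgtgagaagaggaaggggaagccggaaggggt
Atg5: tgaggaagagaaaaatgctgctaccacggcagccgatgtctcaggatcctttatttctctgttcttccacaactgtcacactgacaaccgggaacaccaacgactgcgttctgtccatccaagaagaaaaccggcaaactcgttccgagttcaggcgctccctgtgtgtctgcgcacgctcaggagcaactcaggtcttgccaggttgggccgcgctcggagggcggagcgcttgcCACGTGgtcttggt
Atg7: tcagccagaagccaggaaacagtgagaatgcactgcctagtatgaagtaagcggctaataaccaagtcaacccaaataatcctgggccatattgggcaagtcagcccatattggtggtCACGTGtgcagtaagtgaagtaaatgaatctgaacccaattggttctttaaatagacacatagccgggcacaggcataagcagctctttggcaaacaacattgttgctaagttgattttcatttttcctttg
The last motif ended 65 bases before the start in Atg3, 8 in Atg5 and 126 in Atg7. A match is a description of the letters and not evidence of binding, and none of these 3 genes passed the test in any comparison.

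The LC3 family, the ubiquitin-like proteins that coat the autophagosome and hold receptors, was represented by Map1lc3a, Map1lc3b, Gabarap, Gabarapl1 and Gabarapl2. Map1lc3b, the family member most often used as an autophagosome marker, had 3.62 and 3.83 in Spink3-/- and 3.65 and 3.32 in Spink3-/-XKI/+, against 4.00 and 3.64 in Spink3+/+ pancreas. Arrays of all genotypes overlapped, and the differences from Spink3+/+ were -0.10 ± 0.22 in Spink3-/- (95% interval -0.62 to 0.43) and -0.33 ± 0.22 in Spink3-/-XKI/+ pancreas (-0.86 to 0.20). Gabarapl1 had 5.83 and 6.17 in Spink3-/- and 5.78 and 5.91 in Spink3-/-XKI/+, against 6.00 and 5.69 in Spink3+/+ pancreas. These also overlapped, with 0.15 (-0.35 to 0.66) for Spink3-/- and -0.00 (-0.51 to 0.50) for Spink3-/-XKI/+ against Spink3+/+. Map1lc3a had 2.13 and 2.40 in Spink3-/- and 2.47 and 2.58 in Spink3-/-XKI/+, against 2.39 and 2.41 in Spink3+/+ pancreas. Its Spink3-/- arrays were below its Spink3-/-XKI/+ arrays, at -0.26 ± 0.18 (limma adjusted p = 0.803). Gabarap and Gabarapl2 differed by -0.25 to 0.28, and for all 5 genes the 95% interval lay within a 2-fold change in each comparison.

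The cargo receptors Sqstm1 (p62), Nbr1 and Optn link ubiquitinated cargo to LC3, and p62 protein is itself degraded by autophagy. Sqstm1 had 1.55 and 2.32 in Spink3-/- and 2.00 and 2.44 in Spink3-/-XKI/+, against 1.75 and 1.60 in Spink3+/+ pancreas. Both Spink3-/-XKI/+ arrays were above the wild-type arrays, and the 2 Spink3-/- arrays lay on either side of them. The difference from Spink3+/+ was 0.26 ± 0.30 in Spink3-/- (95% interval -0.47 to 1.00, limma adjusted p = 0.990) and 0.55 ± 0.30 in Spink3-/-XKI/+ pancreas (1.46-fold, -0.19 to 1.28, limma adjusted p = 0.740). For Spink3-/- against Spink3+/+ it was 0.65 without Spink3-/- replicate 1 and -0.13 without Spink3-/- replicate 2.

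A dimmer Sqstm1 probe gives no usable order of the genotypes. It read -2.40 and -1.74 in Spink3-/- and -2.90 and -2.57 in Spink3-/-XKI/+, against -2.96 and -2.99 in Spink3+/+ pancreas, and was above background on the Spink3-/- arrays alone. It was kept only because of the Spink3-/- arrays, so a higher level there follows from the filter, and no fold is given. Between the deficient genotypes the brighter probe stood at -0.29. The probes lie at chr11:50015985-50016044 (brighter) and chr11:50012868-50012927 on the minus strand of mm9. Optn was above background on 1 of 2 Spink3-/-, both Spink3-/-XKI/+ and 1 of 2 Spink3+/+ arrays, and its Spink3-/- arrays were 1.31 apart, the widest replicate gap of any member. Nbr1 differed by -0.11 to 0.06.

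The transcription factors Tfeb and Tfe3 switch on lysosomal and autophagy genes when they enter the nucleus, a step controlled by their phosphorylation. Tfeb had -1.10 and -1.02 in Spink3-/- and -1.10 and -0.87 in Spink3-/-XKI/+, against -1.35 and -1.57 in Spink3+/+ pancreas, by a probe at chr17:47929089-47929148 on the plus strand of mm9. All 4 deficient arrays lay above both wild-type arrays, and in each genotype the difference was larger than any gap between replicates. It was 0.40 ± 0.18 in Spink3-/- (1.32-fold, 95% interval -0.04 to 0.84, limma adjusted p = 0.987) and 0.48 ± 0.18 in Spink3-/-XKI/+ pancreas (1.39-fold, 0.03 to 0.92, limma adjusted p = 0.632). With another background correction (normexp, with an offset of 50 added to each signal) these differences shrank to 0.13 and 0.15. Such an offset by itself narrows the log2 differences of dim probes. Tfe3 had 2.62 and 2.47 in Spink3-/- and 2.58 and 2.82 in Spink3-/-XKI/+, against 2.40 and 2.35 in Spink3+/+ pancreas. By this brighter probe Tfe3 was also higher on all 4 deficient arrays, at 0.17 ± 0.18 (limma adjusted p = 0.990) in Spink3-/- and 0.32 ± 0.18 (limma adjusted p = 0.740) in Spink3-/-XKI/+ against Spink3+/+. A dimmer Tfe3 probe, above background on all 6 arrays, gave -0.02 in Spink3-/- and 0.21 in Spink3-/-XKI/+ against Spink3+/+. On that probe the Spink3-/- arrays, at 0.04 and -0.56, lay on either side of the Spink3+/+ arrays, at -0.26 and -0.22.

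Replicates of the members were 0.33 apart in Spink3-/-, 0.23 in Spink3-/-XKI/+ and 0.22 in Spink3+/+ pancreas (median gap), beside 0.28, 0.23 and 0.19 over all tested genes. A difference exceeded the widest gap between replicates of any genotype for 5 members in Spink3-/- against Spink3+/+ (Atg9a, Atg14, Tfeb, Ulk1 and Uvrag), beside 12.7% of all tested genes, for 6 in Spink3-/-XKI/+ against Spink3+/+ (Atg9a, Atg16l1, Atg16l2, Tfe3, Tfeb and Vmp1), beside 16.5%, and for Atg16l2 in Spink3-/- against Spink3-/-XKI/+, beside 16.5%. These counts were near or below the background. Single arrays also carried several of the larger differences. For Spink3-/- against Spink3+/+, leaving out Spink3+/+ replicate 1 left Ulk1 at -0.15 and Uvrag at -0.15, and leaving out Spink3-/- replicate 1 left Ulk1 at -0.14, Vmp1 at 0.19 and Atg3 at 0.04. For Spink3-/-XKI/+ against Spink3+/+, leaving out Spink3-/-XKI/+ replicate 2 left Sqstm1 at 0.33, Tfe3 at 0.20 and Map1lc3b at -0.17, and leaving out Spink3+/+ replicate 2 left Rb1cc1 at 0.09. For Spink3-/- against Spink3-/-XKI/+, leaving out Spink3-/- replicate 2 left Atg16l2 at -0.61, Atg4c at -0.46 and Ulk2 at -0.22. Summed macrophage and endothelial markers were higher, and erythroid and neutrophil markers lower, on all 4 deficient arrays than on both wild-type arrays. Tfeb, Vmp1, Atg3 and Tfe3, the last by its brighter probe, were likewise higher there, and Atg9a, Atg14 and Atg16l1 lower. The endothelial markers ran apart, from -0.57 in Cdh5 to 0.42 in Kdr in Spink3-/- and from -0.86 to 0.51 in Spink3-/-XKI/+ against Spink3+/+. Of these 3, 1 was lower in Spink3-/- and 2 in Spink3-/-XKI/+. In either genotype 1 of 6 macrophage markers was lower and 1 of 5 neutrophil markers higher. The part of those cells in the autophagy genes' differences was not tested. The arrays lay in 2 rows of a single slide, with both Spink3+/+ arrays and Spink3-/- replicate 1 in row 1 and the other 3 arrays in row 2. Within row 1, Spink3-/- replicate 1 differed from Spink3+/+ by -0.38 in Atg9a, -0.65 in Atg14, 0.66 in Vmp1 and 0.36 in Tfeb. Within row 2, Spink3-/- replicate 2 differed from Spink3-/-XKI/+ by -1.27 in Atg16l2. Neither row held both Spink3-/-XKI/+ and Spink3+/+ arrays. For that pair a fit with the row as a block shifts each difference by the gap between the 2 Spink3-/- arrays. It gave -0.27 for Atg9a, 1.54 for Atg16l2, 1.02 for Vmp1 and 0.40 for Tfeb, and -0.23 for Sqstm1, a change of sign.

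Another 58 genes around the machinery were followed, of which 55 could be tested, and none was called by limma in any comparison. An unadjusted p under 0.05 was found for 4 in Spink3-/- and 4 in Spink3-/-XKI/+ against Spink3+/+, and for 7 between the deficient genotypes, beside 5.06%, 7.56% and 7.2% of all tested genes. Both comparisons that involve Spink3-/-XKI/+ count Tsc2, which passed the probe filter only through the Spink3-/-XKI/+ arrays. Among 19 tested upstream nutrient and energy sensors, Ddit4, a stress-induced inhibitor of mTORC1, had 5.28 and 4.97 in Spink3-/- and 4.70 and 4.80 in Spink3-/-XKI/+, against 4.63 and 4.18 in Spink3+/+ pancreas, a difference of 0.72 for Spink3-/- (limma adjusted p = 0.903). Prkab2, an AMP-activated kinase subunit, was at 0.68 in that comparison. The kinase Mtor stood at -0.68 in Spink3-/- against Spink3-/-XKI/+ pancreas, with 1 of the 2 Spink3-/- arrays above background, and Sesn1 at -0.91 in Spink3-/-XKI/+ against Spink3+/+. Tsc2, an inhibitor upstream of mTORC1, was above background on the Spink3-/-XKI/+ arrays alone and passed the probe filter through them, so no fold is given.

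Among 22 further core factors and receptors, Wdfy3, the aggregate adaptor ALFY, had 0.21 and 0.58 in Spink3-/- and -0.04 and 0.04 in Spink3-/-XKI/+, against -0.27 and -0.48 in Spink3+/+ pancreas, and was 0.77 higher in Spink3-/- than in Spink3+/+ (limma adjusted p = 0.848). Bnip3, a mitophagy receptor induced by hypoxia, had 3.29 and 3.60 in Spink3-/- and 2.70 and 2.44 in Spink3-/-XKI/+, against 3.35 and 3.02 in Spink3+/+ pancreas. It was lowest on the Spink3-/-XKI/+ arrays, with 0.87 for Spink3-/- against Spink3-/-XKI/+ (limma adjusted p = 0.521) and -0.61 for Spink3-/-XKI/+ against Spink3+/+ (limma adjusted p = 0.606). Retreg1, a receptor for endoplasmic reticulum, was at 1.09 in Spink3-/- against Spink3-/-XKI/+ and at 0.62 against Spink3+/+, and Epg5 at -0.73 in Spink3-/-XKI/+ against Spink3+/+. Of 14 tested genes for fusion with the lysosome, Plekhm1 and Rab7 stood at 0.33 and 0.32 in Spink3-/-XKI/+ against Spink3+/+, Plekhm1 at -0.26 in Spink3-/- against Spink3-/-XKI/+, and Vps33a at -0.36 and -0.30 in Spink3-/- against Spink3+/+ and Spink3-/-XKI/+. Vps39, at -0.89 in Spink3-/- against Spink3+/+, had 0.21 on 1 wild-type array and -2.46 on the other. All of these values rest on 2 arrays a genotype, which sets their precision.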

How the data were processed

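Single-colour Agilent arrays of whole newborn pancreas were analysed, 6 in all, grouped into 3 genotypes by the labels. The deposited intensity values are linear processed signals, background-subtracted and detrended per the file headers, made with Agilent Feature Extraction 10.7.3.1 per the submitters' processing notes. The value table deposited for the whole series holds the same intensities. No step made the arrays comparable per the file headers, which name build mm9 for probe positions. Flags for spots above background come from the same files.

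From these, log2 signals minus each array's 75th percentile over non-control spots (111 to 155) were computed, leaving out outlier spots and averaging spots of a probe. A probe was kept if any genotype had it above background on both of its arrays (24824, or 44.6%). Probes were named through the RefSeq gene list (49997 genes, GRCm38.p6): 26762 by accession, 3819 by symbol, 639 by older symbol, 2044 by the file's name and 22417 not. Of the members, 3 stood under older symbols. A gene stands by its brightest kept probe, which left 14171 tested genes. The limma package (3.58.1, R 4.3.3; functions lmFit, contrasts.fit and eBayes, two-sided) was fitted on all 6 arrays with 3 residual degrees of freedom, p-values were adjusted by Benjamini-Hochberg over all tested genes, and genes under 0.05 were called. The fit was tested on simulated data. Reading used data.table (version 1.17.8) and pandas 2.3.3, with Python 3.11.15 and matplotlib 3.10.9.

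Members and lists were chosen with earlier results of these data known. Values on every array are given for 9 well-known members, for the 6 with the lowest p per comparison and for those whose probes disagree in sign by over 0.5, and of each further list the 2 genes with the lowest p per comparison are named. There were 10 marker lists: acinar, islet, duct, liver, macrophage, neutrophil, erythroid, striated muscle, endothelial, and fibroblast and stellate genes. Alternatives covered scaling (quantile, spike-in controls, another percentile), background correction, probe filter, probe choice, variance prior, blocks, the samples in the fit and leaving out each array. No probe was saturated and 1 slide and 1 scan date held all arrays.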

Additional observations from a re-analysis of the deposited data

How the results depend on the processing

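No autophagy gene was called by limma in any of the 3 comparisons under any of the 13 other settings or without any 1 of the 6 arrays. The smallest adjusted p of a member over all of these was 0.517 in Spink3-/- against Spink3+/+, 0.411 in Spink3-/-XKI/+ against Spink3+/+ and 0.365 in Spink3-/- against Spink3-/-XKI/+. Of the 13 settings, 1 used the value table of the whole series, which holds the same intensities and could only repeat the main result. The members' median ran from -0.13 to 0.09, from -0.02 to 0.12 and from -0.14 to -0.02 in the 3 comparisons, in the same order, as arrays were left out. With the slide row as a block the median in Spink3-/-XKI/+ against Spink3+/+ was -0.20, against 0.06 without it. Neither row held both genotypes, so that fit shifts each difference by the gap between the Spink3-/- arrays. This gap, replicate 1 minus replicate 2, had a median of -0.24 over the members. Spike-in scaling put the median of all genes in Spink3-/- against Spink3+/+ at 0.12 and that of the members at 0.08, so both moved together. Atg9a stayed negative, and Tfeb and Vmp1 positive, against Spink3+/+ in both deficient genotypes under all settings, with Atg9a between -0.81 and -0.31 in Spink3-/- and between -0.88 and -0.27 in Spink3-/-XKI/+. Of 60 differences of named members, 29 changed sign in at least 1 setting, none of them called.

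Counts of all called genes were small and moved. In Spink3-/- against Spink3+/+ there were 5, but 1 with normexp correction, without the probe filter, with probes above background on all 6 arrays, with the slide row as a block or with only the 2 genotypes, 2 with the mean of a gene's probes or an intensity trend, and 11 over single probes. In Spink3-/-XKI/+ against Spink3+/+ there was 1, but 3 with quantile normalization, 2 with normexp, single probes or an intensity trend, and 0 with the slide row. In Spink3-/- against Spink3-/-XKI/+ there was 1, but 4 with quantile normalization, 2 with spike-in scaling, 3 with the slide row, and 0 with normexp, no filter, probes on all 6 arrays, single probes, an intensity trend or only 2 genotypes. Leaving out arrays gave 1 to 6, 1 to 2 and 0 to 3 called genes in the 3 comparisons. Unadjusted p under 0.05 was found for 717, 1072 and 1021 genes.

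Samples of the same number shared little beyond it: their deviations correlated at 0.20 between Spink3-/- and Spink3-/-XKI/+, -0.06 between Spink3-/- and Spink3+/+ and 0.03 between Spink3-/-XKI/+ and Spink3+/+. With the replicate block 1 gene was called in Spink3-/- against Spink3+/+ and 0 in Spink3-/- against Spink3-/-XKI/+. The largest standard errors were those of Atg9b, which was above background on all arrays, and of Optn and Atg4c, which were not.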

Other observations

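A further Tfeb probe, at chr17:47876857-47876916 on the plus strand of mm9, was too dim to be used. It read 0.37 on Spink3+/+ replicate 2, the array on which it was above background, and between -4.92 and -4.01 on the other 5 arrays. Vps39, read by another probe, was also far higher on that array than on the other wild-type array.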
